A study of Homo sapiens with 4 samples.

Results

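The potassium channel genes are the 55 genes of the deposited table whose symbol begins with KCN once antisense and pseudogene names are dropped, out of 18375 genes in all. Of 58 such rows, 3 antisense transcripts (KCNJ2-AS1, KCNIP2-AS1 and KCNQ1OT1) were dropped. The 55 comprise 53 protein-coding genes and 2 non-coding transcripts from introns of channel genes, KCNH1-IT1 and KCNQ5-IT1. GENCODE 29 lists 97 protein-coding KCN genes, and the ones outside the 53 were not analysed here.

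RD is an established line of fusion-negative rhabdomyosarcoma, a soft tissue tumour of skeletal muscle lineage. Poly(A)-enriched RNA was sequenced in 2 libraries of vincristine-resistant RD cells and 2 libraries of untreated control (parental) RD cells, and the genotype of all 4 is given as WT. Resistance was selected from a first vincristine dose of 1 to 1.5 nM, which left 10 to 20% of the cells alive, with steps of 10 to 20% for 9 to 12 months, until the half-maximal inhibitory concentration had risen at least 100-fold. Vincristine is a drug against tubulin that stops cells in mitosis. The labels name neither separate cultures nor separate selections behind the replicates, and do not say whether the drug was present at harvest, so each p-value here reflects library-to-library spread alone, and that spread may be technical.

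Depth was 58861281 and 67270948 recovered reads in resistant cells and 67690557 and 65818879 in parental cells. Of 8 markers of skeletal muscle and rhabdomyosarcoma, 7 were measured, and their summed level was 187751 to 192500 normalized counts in resistant cells and 101992 to 102158 in parental cells, with 6 called higher. The endothelial markers PECAM1, CDH5 and VWF, the leukocyte markers PTPRC and CD3E and the neuronal markers RBFOX3 and ELAVL4 had no values in the table used here. The 4 measured markers of neurons, cells rich in these channels, summed to 2868 to 3381 in resistant and 3366 to 3448 in parental cells, with SNAP25 higher and SYP, STMN2 and TUBB3 lower. Of the other lists, epithelial markers, almost all KRT18, summed to 13860 to 14086 in resistant and 4479 to 4511 in parental cells. Fibroblast markers, almost all COL1A1, summed to 67021 to 68259 in resistant and 40315 to 40830 in parental cells. Glial markers, mostly MBP, summed to 675 to 685 in resistant and 331 to 353 in parental cells, and the leukocyte markers CD68 and CD14 to 41.1 to 57.3 in resistant and 49.7 to 53.2 in parental cells. What part these levels have in the results was not tested, and in bulk RNA a change in the number of cells that express a gene cannot be told apart from a change in each cell.

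Potassium channels let potassium ions cross the membrane and so set the resting potential and shape electrical activity, cell volume and calcium entry. Voltage-gated channels open on depolarization, inward rectifiers and tandem-pore channels carry resting current, and calcium-activated channels couple the membrane potential to calcium signals. In human myoblasts, hyperpolarization through the inward rectifier encoded by KCNJ2, preceded by current through the channel of KCNH1, is a known early step of differentiation.

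The results turn on the near absence of KCNJ2 and KCNK2 reads in resistant cells and on large rises of KCNJ3, KCNF1 and KCNA3, so the promoters of these genes are shown first, chosen after the values were seen. Each is a RefSeq window on GRCh38.p14 of 300 bases, from 250 before to 50 after an annotated transcript start, on the strand of the gene. Capitals mark the E-box CAGCTG, a preferred site of myogenic factors, and the GC box GGGCGG or its complement CCGCCC, the site of SP1. The windows were chr17:70169282-70169581 (plus strand) for KCNJ2, chr1:215005292-215005591 and chr1:215082487-215082786 (plus) for the 2 starts of KCNK2, chr2:154698445-154698744 (plus) for KCNJ3, chr2:10911684-10911983 (plus) for KCNF1 and chr1:110674891-110675190 (minus) for KCNA3, whose start nearest to the 5′ end of the GENCODE gene was taken.
KCNJ2: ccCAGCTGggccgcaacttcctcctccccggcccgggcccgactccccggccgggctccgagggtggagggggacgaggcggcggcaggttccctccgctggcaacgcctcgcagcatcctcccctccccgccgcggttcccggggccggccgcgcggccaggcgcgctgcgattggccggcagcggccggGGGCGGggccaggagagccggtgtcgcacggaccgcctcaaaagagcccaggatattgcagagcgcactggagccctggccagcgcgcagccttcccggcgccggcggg
KCNK2, first start: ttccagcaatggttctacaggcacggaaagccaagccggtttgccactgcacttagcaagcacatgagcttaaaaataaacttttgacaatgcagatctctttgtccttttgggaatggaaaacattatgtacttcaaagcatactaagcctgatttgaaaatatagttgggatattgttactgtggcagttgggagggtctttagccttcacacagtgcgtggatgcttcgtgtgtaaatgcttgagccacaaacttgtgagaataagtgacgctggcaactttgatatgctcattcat
KCNK2, second start: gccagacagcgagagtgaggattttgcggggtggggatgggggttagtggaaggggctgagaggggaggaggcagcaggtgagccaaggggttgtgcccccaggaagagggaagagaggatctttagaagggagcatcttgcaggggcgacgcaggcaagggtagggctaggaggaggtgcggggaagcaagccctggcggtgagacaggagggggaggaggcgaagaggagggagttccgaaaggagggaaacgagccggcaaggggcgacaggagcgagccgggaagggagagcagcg
KCNJ3: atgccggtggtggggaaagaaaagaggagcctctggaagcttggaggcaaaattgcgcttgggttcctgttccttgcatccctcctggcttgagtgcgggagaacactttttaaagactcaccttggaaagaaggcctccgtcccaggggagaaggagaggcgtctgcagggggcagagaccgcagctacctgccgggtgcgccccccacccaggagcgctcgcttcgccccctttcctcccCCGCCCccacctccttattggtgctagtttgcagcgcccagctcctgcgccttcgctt
KCNF1: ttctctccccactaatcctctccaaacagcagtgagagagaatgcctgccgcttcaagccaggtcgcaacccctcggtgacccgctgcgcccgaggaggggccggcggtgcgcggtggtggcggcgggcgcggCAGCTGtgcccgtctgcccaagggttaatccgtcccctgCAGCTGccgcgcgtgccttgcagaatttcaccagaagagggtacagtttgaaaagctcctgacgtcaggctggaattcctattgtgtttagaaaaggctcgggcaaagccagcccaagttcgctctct
KCNA3: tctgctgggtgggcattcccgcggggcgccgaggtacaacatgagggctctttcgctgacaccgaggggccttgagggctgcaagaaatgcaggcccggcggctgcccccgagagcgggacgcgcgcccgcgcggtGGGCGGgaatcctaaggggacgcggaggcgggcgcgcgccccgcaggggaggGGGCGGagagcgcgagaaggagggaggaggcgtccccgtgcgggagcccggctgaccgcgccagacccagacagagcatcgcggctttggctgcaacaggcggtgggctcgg

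KCNF1 had 2 CAGCTG matches and no GC box, KCNJ2 had 1 of each, KCNA3 had 2 GC boxes, KCNJ3 had 1, and neither start of KCNK2 had a match. CAGCTG, which reads the same on both strands, was found in 17.9% and the GC box, searched on both strands, in 45.0% of 35116 RefSeq promoter windows of this length. Windows were available for 42 of the 55 genes, and of their 70 windows 14 (20.0%) held CAGCTG and 37 (52.9%) a GC box. The KCNJ2 window had a GC content of 78.0% and 39 CG dinucleotides, the first KCNK2 window 42.0% and 5, and the second KCNK2 window 64.7% and 14, against medians of 58.7% and 14 over all windows. The KCNJ2 window shares 229 bases, read on the opposite strand, with that of KCNJ2-AS1. A match is a description of the letters and no evidence of binding.

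The comparison asked which potassium channel genes differ between resistant and parental cells. Of the 55 genes, 30 were higher and 14 lower in resistant cells (54.5% and 25.5%), and 11 did not pass, by limma on log2(normalized count + 1) at an adjusted p below 0.05 over all 18330 genes tested. Over all genes 66.9% were called, 32.7% higher and 34.2% lower. Requiring a 2-fold change as well left 17 higher and 6 lower channel genes (30.9% and 10.9%), against 8.96% higher and 6.57% lower over all genes. The median log2 fold change was 0.37 over the 55 genes and 0.00 over all genes. In 50 of the 55 genes (90.9%) the 2 groups did not overlap, against 82.1% of all genes. All 55 passed the filter on low values, of which KCNJ2 and KCNK2 passed through the parental libraries alone and KCNA2 through the resistant ones alone, so that these 3 had to differ.

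Other tests of the same contrast called as many channel genes or fewer. The edgeR quasi-likelihood test on the recovered reads called 30 higher and 14 lower (over all genes 33.1% and 34.5%), and limma-voom 29 and 14 (33% and 34.3%). DESeq2 called 25 channel genes higher and 9 lower (over all genes 27.1% and 29.7%), as did the authors' deposited table (27% and 29.6% of its genes). The calls lost by DESeq2 were those of KCNC1, KCND3, KCNH2, KCNH3, KCNH4, KCNJ4, KCNJ11, KCNJ14, KCNMB3 and KCNH1-IT1. Against a change of 1.2-fold, limma called 24 higher and 5 lower (over all genes 18.4% and 18.6%). With the dispersion fixed at 0.01, edgeR called 25 higher and 10 lower (22.1% and 21.2%).

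**Figure D1:**
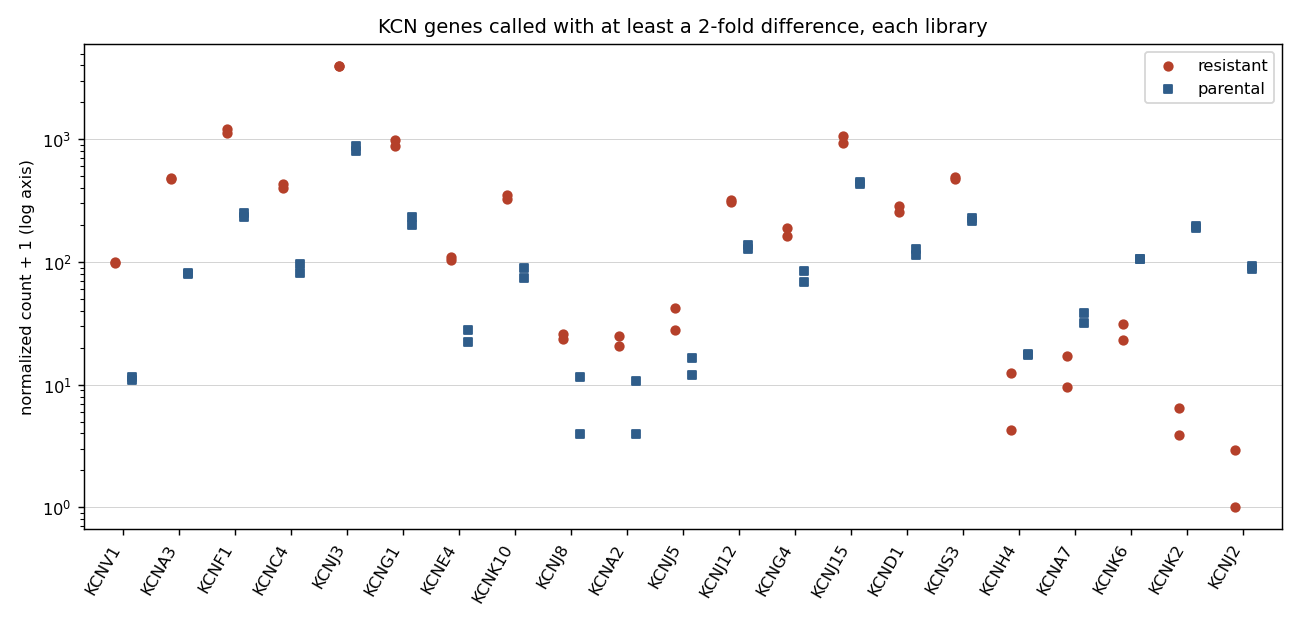
Normalized count plus 1 (log axis) in each library of 21 KCN genes called with at least a 2-fold difference, ordered by log2 fold change, with resistant libraries as circles and parental libraries as squares. The 16 higher genes stand to the left and the 5 lower ones to the right. All were chosen for their difference, so the separation of their groups is no further result, and KCNA2, KCNJ2 and KCNK2 had to differ.

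**Figure D2:**
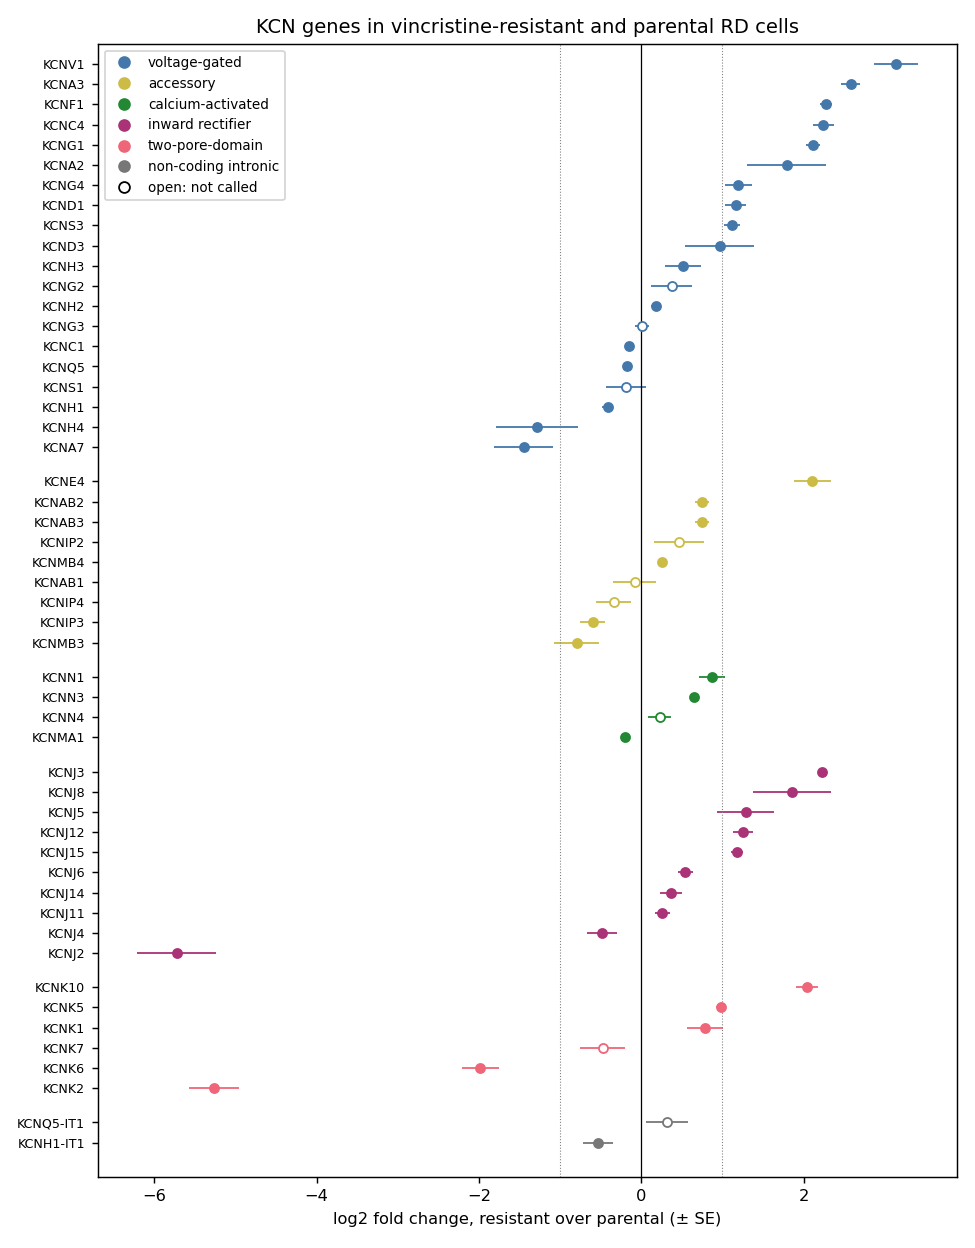
Log2 fold change of resistant over parental cells, with its SE, for 51 KCN genes by channel class; filled symbols passed limma at an adjusted p below 0.05, open ones did not, and dotted lines mark a 2-fold change. Values ran from -5.72 for KCNJ2 to 3.14 for KCNV1.

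Among the 24 voltage-gated pore subunits, 13 were higher and 6 lower (over all genes 32.7% and 34.2%). At least a 2-fold change was found in 10 of the higher and 3 of the lower. These were 41.7% and 12.5% of the 24, against 8.96% and 6.57% over all genes. The genes of electrically silent subunits, which form no channel alone but join other voltage-gated subunits and change their gating, form a group of 8 here. Of these 8, 5 rose, all by more than 2-fold (over all genes 8.96% were called higher by at least 2-fold), and 3 did not pass. This grouping was made after the values were seen. KCNF1 had 1128 and 1215 normalized counts in resistant cells, against 232 and 250 in parental cells (log2 fold change 2.28, SE 0.08, limma adjusted p = 2.72e-19). Both resistant libraries lay far above both parental ones. KCNG1 had 886 and 985 in resistant cells against 200 and 231 in parental cells (log2 fold change 2.12, SE 0.09, limma adjusted p = 2.15e-17). KCNV1 had 99.6 and 97.4 in resistant cells against 10.6 and 9.94 in parental cells, the largest rise among the 55 genes at 3.14 (SE 0.28, limma adjusted p = 1.02e-10). Its parental level rests on 21 reads, and the ratio of reads was 9.56 and its exact 95% interval for counting error ran from 6.08 to 15.8. KCNS3 (472 and 495 in resistant cells against 217 and 228 in parental cells, log2 fold change 1.12, SE 0.10) and KCNG4 (188 and 160 in resistant cells against 67.7 and 83.5 in parental cells, a ratio of means of 2.29, limma adjusted p = 3.17e-07) rose as well, again with separate groups.

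Among the silent subunit genes that did not pass, KCNG3 was at 496 and 495 normalized counts in resistant cells and 540 and 449 in parental cells (log2 fold change 0.01, SE 0.09), and the groups overlapped. KCNG2 (0.37, SE 0.25) and KCNS1 (-0.18, SE 0.24) did not pass either, each with separate groups at levels under 50.

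The Shaker-type and Shaw-type genes split. KCNA3, the gene of Kv1.3, the main voltage-gated channel of T lymphocytes, had 477 and 482 normalized counts in resistant cells and 80.2 and 78.5 in parental cells (log2 fold change 2.58, SE 0.12, limma adjusted p = 1.64e-16). The 2 libraries of each group nearly coincided. KCNA2 (Kv1.2) was at 19.5 and 23.9 in resistant cells against 9.67 and 2.98 in parental cells. It had 43 reads in resistant and 13 in parental libraries, a read ratio of 3.42 (exact 95% counting interval 1.81 to 6.94). KCNA2 passed the filter on low values through the resistant libraries alone, so it had to differ and its p-value is left out. Its fitted log2 fold change was 1.79 (SE 0.49), 2.5 without parental replicate 1 and 1.08 without parental replicate 2. KCNA7 (Kv1.7) was lower, at 16.2 and 8.59 in resistant cells against 37.7 and 30.8 in parental cells (-1.45, SE 0.36, limma adjusted p = 0.000994). With the median shift of its chromosomal neighbours (-0.51) removed, KCNA7 was at -0.93 (limma adjusted p = 0.0268, with that median taken as known). Of the genes for fast Kv3 channels, KCNC4 rose, with 400 and 434 in resistant cells against 95.7 and 79.5 in parental cells (2.24, SE 0.13). KCNC1, of the same family, was slightly lower at 1545 and 1666 in resistant cells against 1791 and 1769 in parental cells (-0.15, SE 0.05, limma adjusted p = 0.0115). The limma adjusted p of KCNC1 was 0.104 without parental replicate 1, 0.0650 without parental replicate 2 and 0.0831 without resistant replicate 1, each above 0.05.

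The Kv4 genes, which carry transient currents, were higher. KCND1 had 253 and 285 normalized counts in resistant cells against 127 and 112 in parental cells (log2 fold change 1.17, SE 0.13, limma adjusted p = 9.51e-09). KCND3, at 20.6 and 18.1 in resistant cells against 12.6 and 6.96 in parental cells, was called at 0.97 (SE 0.42, limma adjusted p = 0.0461), but not without parental replicate 2 (0.275), resistant replicate 1 (0.166) or resistant replicate 2 (0.0855).

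KCNQ5 (Kv7.5), the gene of a slow channel and the most abundant voltage-gated member, had 3395 and 3497 normalized counts in resistant cells against 3948 and 3819 in parental cells (log2 fold change -0.17, SE 0.04, limma adjusted p = 0.000384). That difference is larger than the spread of the libraries but did not pass against a change of 1.2-fold. Of the KCNH genes, of ether-a-go-go type channels, KCNH1, named above for its part in myoblast differentiation, was lower at 606 and 676 in resistant cells against 870 and 834 in parental cells (-0.41, SE 0.07, limma adjusted p = 1.05e-05). Annotated transcripts cover up to 36.9% of its exonic bases on the opposite strand and up to 16.1% on the same strand. The strand setting of the counting is not given either, so the value of KCNH1 is uncertain. KCNH1-IT1, read from the KCNH1 locus, had 83.3 and 64.0 in resistant cells and 105 and 106 in parental cells (-0.53, SE 0.18, limma adjusted p = 0.0123). Its call was lost without resistant replicate 2 (limma adjusted p = 0.145) and, by a narrow margin, without parental replicate 2 (0.050). KCNQ5-IT1 did not pass (0.32, SE 0.26).

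KCNH2, which encodes the cardiac repolarization channel hERG, had 959 and 1009 normalized counts in resistant cells and 866 and 865 in parental cells (0.18, SE 0.06, limma adjusted p = 0.0103), a call lost without parental replicate 1 (0.0670) or 2 (0.0711). KCNH3, with 67.1 and 62.0 in resistant cells against 49.3 and 40.8 in parental cells (0.52, SE 0.22), and KCNH4 (-1.28, SE 0.51), genes of brain channels of the same family, were called at low levels. KCNH4 held 3.25 and 11.5 in resistant cells against 16.4 and 16.9 in parental cells, and its call was lost without resistant replicate 1 (limma adjusted p = 0.398), parental replicate 1 (0.0648) or 2 (0.0739). Leaving out resistant replicate 1 gave a log2 fold change of -0.50, and leaving out resistant replicate 2 one of -2.06. For KCNH3 the limma adjusted p was 0.221 without parental replicate 2, 0.161 without resistant replicate 1 and 0.0713 without resistant replicate 2.

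Accessory and regulatory subunits bind pore subunits and tune their gating or traffic. Of 9 measured, 4 were higher and 2 lower (over all genes 32.7% and 34.2%), and 3 did not pass. At least a 2-fold change was found in 1 of the 9 (11.1%), a higher one, against 8.96% higher and 6.57% lower over all genes. That gene, KCNE4, encodes a small membrane protein that damps several voltage-gated channels. It had 103 and 110 normalized counts in resistant cells against 21.3 and 26.8 in parental cells (log2 fold change 2.11, SE 0.23, limma adjusted p = 6.47e-09). The cytoplasmic beta subunit genes KCNAB2 (651 and 756 in resistant cells against 393 and 440 in parental cells, 0.75, SE 0.08) and KCNAB3 (495 and 572 in resistant cells against 317 and 314 in parental cells, 0.75, SE 0.09) rose by similar amounts. KCNAB1 did not pass (-0.08, SE 0.26). KCNMB4, a beta subunit gene of the large-conductance calcium-activated channel and the most abundant accessory gene per length, had 1613 and 1727 in resistant cells and 1384 and 1412 in parental cells (0.26, SE 0.05, limma adjusted p = 0.000103). With the median shift of its chromosomal neighbours removed, KCNMB4 was lower, at -0.17 (limma adjusted p = 0.00476, with that median taken as known), so its direction depends on this choice.

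KCNIP3, whose calcium-binding product modulates Kv4 channels and also represses transcription, was at 120 and 189 normalized counts in resistant cells against 226 and 231 in parental cells (-0.60, SE 0.15, limma adjusted p = 0.00125). The resistant libraries differed widely from each other here, and without resistant replicate 1 the value was -0.27 (limma adjusted p = 0.0818). KCNMB3, a further beta subunit gene, had 33.5 and 21.0 in resistant cells against 50.3 and 43.7 in parental cells (-0.80, SE 0.28) and was called as well, but not without resistant replicate 2 (limma adjusted p = 0.186) or without parental replicate 1 (0.0859). PIK3CA on the opposite strand covers 37.9% of the exonic bases of KCNMB3, and a same-strand gene 9.62%, which leaves its count uncertain. KCNIP2 (0.46, SE 0.31), 12.2% of whose exonic bases lie opposite KCNIP2-AS1, and KCNIP4 (-0.34, SE 0.21) did not pass.

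The 4 calcium-activated pore genes differed by less than 2-fold. KCNN3, which encodes the small-conductance channel SK3, had 5595 and 5393 normalized counts in resistant cells against 3554 and 3457 in parental cells (log2 fold change 0.65, SE 0.04, limma adjusted p = 2.04e-14). KCNN1 was also higher, at 140 and 177 in resistant cells against 82.2 and 88.5 in parental cells (0.87, SE 0.16, limma adjusted p = 2.97e-05). KCNMA1, the gene of the large-conductance channel, was lower at 4173 and 4299 in resistant cells against 4832 and 4891 in parental cells (-0.20, SE 0.04, limma adjusted p = 3.16e-05), a difference that did not pass against 1.2-fold. The groups were separate for all 3 of these genes. KCNN4, the intermediate-conductance gene, had 187 and 155 in resistant cells against 156 and 135 in parental cells, groups that overlapped by a small margin, and did not pass (0.23, SE 0.14, limma adjusted p = 0.157). Without resistant replicate 2 the value of KCNN4 was 0.37. It passed with the neighbours' median removed (0.45, limma adjusted p = 0.00660, with that median taken as known).

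All 10 inward rectifier genes passed the test, 8 higher and 2 lower (over all genes 32.7% and 34.2%). DESeq2 did not call KCNJ4, KCNJ11 or KCNJ14. KCNJ3, the gene of the G protein-gated subunit GIRK1, had 3953 and 3938 normalized counts in resistant cells against 805 and 873 in parental cells (log2 fold change 2.23, SE 0.05, limma adjusted p = 1.76e-23). The 2 resistant libraries were nearly equal, and both lay far above the parental ones. GIRK1 needs a partner subunit to reach the surface. The partner genes were less abundant and rose less, with KCNJ6 (GIRK2) at 603 and 552 in resistant cells against 360 and 433 in parental cells (0.55, SE 0.09, limma adjusted p = 6.67e-06). KCNJ5 (GIRK4) was at 41.1 and 26.7 in resistant cells against 15.5 and 10.9 in parental cells (1.29, SE 0.35, limma adjusted p = 0.00229), a call lost without resistant replicate 1 (0.98, limma adjusted p = 0.0660). KCNJ15, the gene of the epithelial rectifier Kir4.2, rose with 1060 and 929 in resistant cells against 445 and 427 in parental cells (1.18, SE 0.08, limma adjusted p = 1.25e-13). KCNJ15 and KCNJ6 lie 34.2 kb apart on chromosome 21.

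The Kir2 genes, which carry the strong inward rectifier current of muscle and heart, moved in opposite directions. KCNJ2 (Kir2.1) fell to 0 and 1.91 normalized counts in resistant cells, against 87.0 and 91.5 in parental cells. This was 2 reads in the resistant libraries and 182 in the parental ones. The level was 87.9 times lower in resistant cells, with an exact 95% counting interval of 24.0 to 732. KCNJ2 passed the filter on low values through the parental libraries alone, so it had to differ and its p-value is left out. The fitted log2 fold change of KCNJ2 was -4.95 with resistant replicate 1 left out, -6.50 with resistant replicate 2 left out, and -4.00 with a pseudocount of 5. KCNJ12 (Kir2.2) rose, with 320 and 307 in resistant cells against 126 and 136 in parental cells (1.26, SE 0.12, limma adjusted p = 4.98e-10). The near-identical gene KCNJ18 was not analysed here and its reads can be split with those of KCNJ12, so this value is uncertain. Per kilobase of transcript, KCNJ12 was at 57.8 ± 1.69 in resistant cells and 24.1 ± 1.37 in parental cells, and KCNJ2 at 0.177 ± 0.250 in resistant and 16.5 ± 0.583 in parental cells (SD, n = 2). KCNJ4 (Kir2.3) was lower (61.7 and 80.2 in resistant cells against 94.7 and 102 in parental cells, -0.48, SE 0.19) and KCNJ14 (Kir2.4) higher (184 and 212 in resistant cells against 148 and 158 in parental cells, 0.37, SE 0.13). The call of KCNJ4 was lost without resistant replicate 1 (limma adjusted p = 0.235) or without parental replicate 2 (0.125), and that of KCNJ14 without parental replicate 1 (0.0943) or resistant replicate 2 (0.144). Annotated transcripts on the opposite strand cover 12.6% of the exonic bases of KCNJ4 and 16.5% of those of KCNJ14. A gene on the same strand covers 8.06% of those of KCNJ14. The values of KCNJ4 and KCNJ14 are therefore uncertain.

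Of the pore genes of ATP-sensitive channels, which couple metabolism to the membrane potential, KCNJ11 (Kir6.2) had 351 and 374 normalized counts in resistant cells against 291 and 313 in parental cells (0.26, SE 0.10, limma adjusted p = 0.0188). This call was lost without parental replicate 1 (0.157) or resistant replicate 2 (0.0904). KCNJ8 (Kir6.1) was at 22.7 and 24.8 in resistant cells against 10.6 and 2.98 in parental cells, 47 reads in resistant and 14 in parental libraries, a read ratio of 3.47 (exact 95% counting interval 1.88 to 6.83; log2 fold change 1.86, SE 0.48, limma adjusted p = 0.00135), and transcripts of another gene cover 10.8% of its exonic bases. The log2 fold change of KCNJ8 was 2.64 without parental replicate 1 and 1.09 without parental replicate 2 (limma adjusted p = 0.0282). ABCC9, whose sulfonylurea receptor SUR2 pairs with these pores, was higher at 284 ± 3.54 in resistant cells and 113 ± 5.00 in parental cells (SD, n = 2; 1.32, SE 0.13).

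The 6 tandem-pore genes belong to a family of leak channels that hold the resting potential. Here 3 rose, 2 fell and 1 did not pass (over all genes 32.7% were higher and 34.2% lower). KCNK2, the gene of the mechanosensitive leak channel TREK-1, fell to 5.41 and 2.86 normalized counts in resistant cells, against 187 and 194 in parental cells. It passed the filter on low values through the parental libraries alone, so it had to differ and its p-value is left out. The 8 resistant and 388 parental reads put it 46.9 times lower in resistant cells, with an exact 95% counting interval of 23.6 to 109. Its fitted log2 fold change was -5.26 (SE 0.30), and -4.43 with a pseudocount of 5. KCNK10, the gene of the related TREK-2, rose, with 350 and 324 in resistant cells against 73.5 and 88.5 in parental cells (2.05, SE 0.14, limma adjusted p = 3.38e-13). In resistant cells KCNK10 stood above KCNK2, and in parental cells KCNK2 stood above KCNK10. Per kilobase of transcript, KCNK10 was at 44.9 ± 2.44 in resistant cells and 10.8 ± 1.41 in parental cells, and KCNK2 at 1.22 ± 0.533 in resistant and 56.3 ± 1.52 in parental cells (SD, n = 2).

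KCNK6 (TWIK-2) fell to 30.3 and 22 normalized counts in resistant cells, against 104 and 105 in parental cells (-1.98, SE 0.23, limma adjusted p = 2.05e-08). KCNK5 (TASK-2), a pH-sensitive leak channel gene and the most abundant of the class per length, rose, with 1407 and 1439 in resistant cells against 735 and 708 in parental cells (0.98, SE 0.06, limma adjusted p = 4.34e-14). KCNK1 (TWIK-1) was higher at 75.7 and 93.5 in resistant cells against 38.7 and 60.6 in parental cells (0.78, SE 0.22), but not without parental replicate 1 (0.47, limma adjusted p = 0.0919). KCNK7 did not pass (-0.48, SE 0.28).

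Levels per length show which genes dominate. Dividing each normalized count by the length of the longest annotated transcript, the 53 coding genes summed to 6206 ± 171 normalized counts per kilobase in resistant cells and 3989 ± 15.3 in parental cells (SD, n = 2). The 10 highest genes held 64.6 to 64.7% of this sum in resistant libraries and 64.6 to 65.2% in parental ones, and 8 of the 10 were shared. KCNJ3 ranked 1 of the 53 in resistant cells with 12.7% of the sum, and 8 in parental cells with 4.19%. KCNF1 ranked 3 in resistant cells and 12 in parental cells. KCNQ5 held 8.30% in resistant cells and 14.6% in parental cells, where it ranked 1, and KCNMA1 held 5.65% in resistant and 10.1% in parental cells. KCNQ5 (515 ± 10.9 per kilobase) and KCNF1 (512 ± 27.0), neighbours in the resistant order, did not differ beyond their spread.

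**Figure D3:**
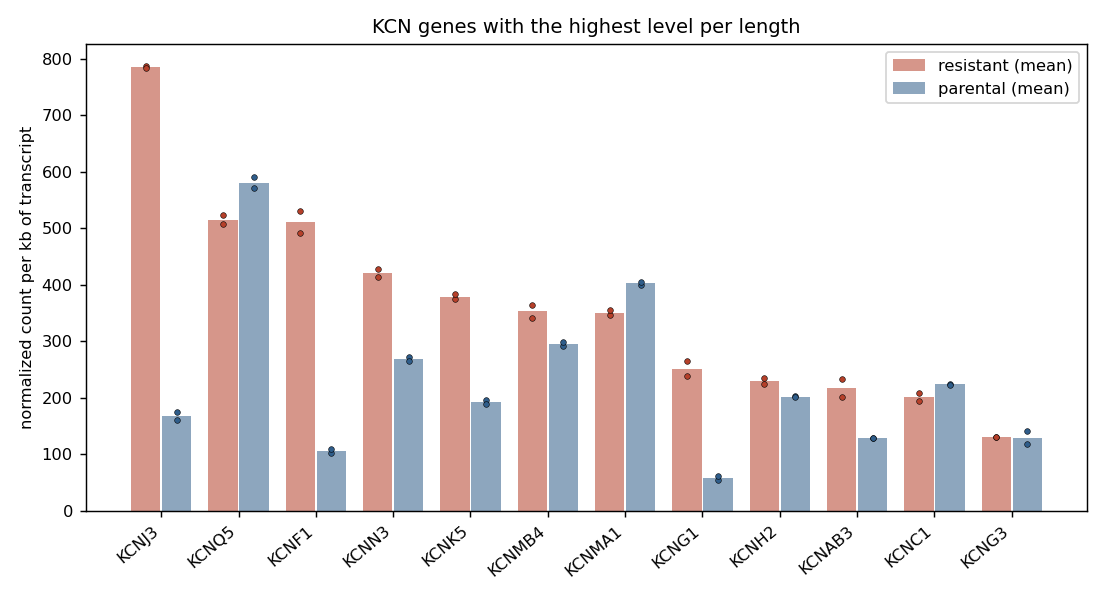
Normalized count per kilobase of the longest annotated transcript for the 12 genes among the 10 highest of either group; bars are means of 2 libraries and points the libraries. KCNJ3 is the highest in resistant cells and KCNQ5 in parental cells.

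By class, inward rectifiers took 19.3 to 20.1% of the per-length sum in resistant libraries and 11.6 to 12.4% in parental ones. Within this class, KCNJ3 alone held 12.7% of the sum in resistant and 4.19% in parental cells. The summed level of inward rectifiers was 1221 ± 0.266 per kilobase in resistant and 479 ± 19.9 in parental cells (SD, n = 2). Voltage-gated genes took 44.0 to 44.6% in resistant and 44.0 to 45.2% in parental libraries. Calcium-activated genes took a smaller share in resistant libraries, 14.0 to 14.7%, against 19.0 to 19.1% in parental ones, although their summed level was higher, at 891 ± 6.60 in resistant and 760 ± 7.03 in parental cells. Isoform lengths in RD cells were not measured, so order between genes rests on the annotated length.

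The values were set beside those of chromosomal neighbours. KCNJ2 (chromosome 17, 70168673 to 70180048, GRCh38) lies among lower genes, and 17 of the 20 nearest tested genes, 10 on each side, were called lower, 1 was higher, and the median log2 fold change was -1.45. KCNJ2 was lower than each of these 20, and with the neighbours' median removed it remained lower at -4.28. KCNJ2-AS1, which starts beside it on the opposite strand, had 0 reads in both resistant libraries and 23.2 and 29.8 normalized counts in parental libraries, at least 17.4-fold lower in resistant cells if 3 reads over the resistant group are taken as the detection floor. SOX9, the nearest tested coding gene on the distal side, had a log2 fold change of -2.50 and MAP2K6 on the proximal side one of -0.79.

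KCNK2 (chromosome 1, 215005775 to 215237093) had no such setting. Of its 20 neighbours 10 were called higher and 4 lower, with a median of 0.16 and a lowest value of -1.30, while KCNK2 was at -5.26 (SE 0.30). KCNK6 (chromosome 19) had neighbours with a median of -0.60. It remained lower once that was removed (-1.38, limma adjusted p = 8.04e-06, with that median taken as known).

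KCNC4, KCNA2 and KCNA3 lie within one stretch of chromosome 1, at 110211343 to 110283100, 110519837 to 110631474 and 110672465 to 110675033. All 3 rose, as did the transcript AL365361.1 between KCNA2 and KCNA3 (2.67). Of these, KCNA2 passed the filter on low values through the resistant libraries alone and so had to differ. The genes from RBM15-AS1 to LAMTOR5, between KCNC4 and KCNA2, ranged from -0.38 to 0.55, and the 10 tested genes beyond KCNA3 ranged from -0.77 for OVGP1 to 1.13 for DENND2D, with 1 called higher and 3 lower. The median over the 20 neighbours of KCNA3 was 0.08. KCND3, 1096 kb from KCNA3, was at 0.97.

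**Figure D4:**
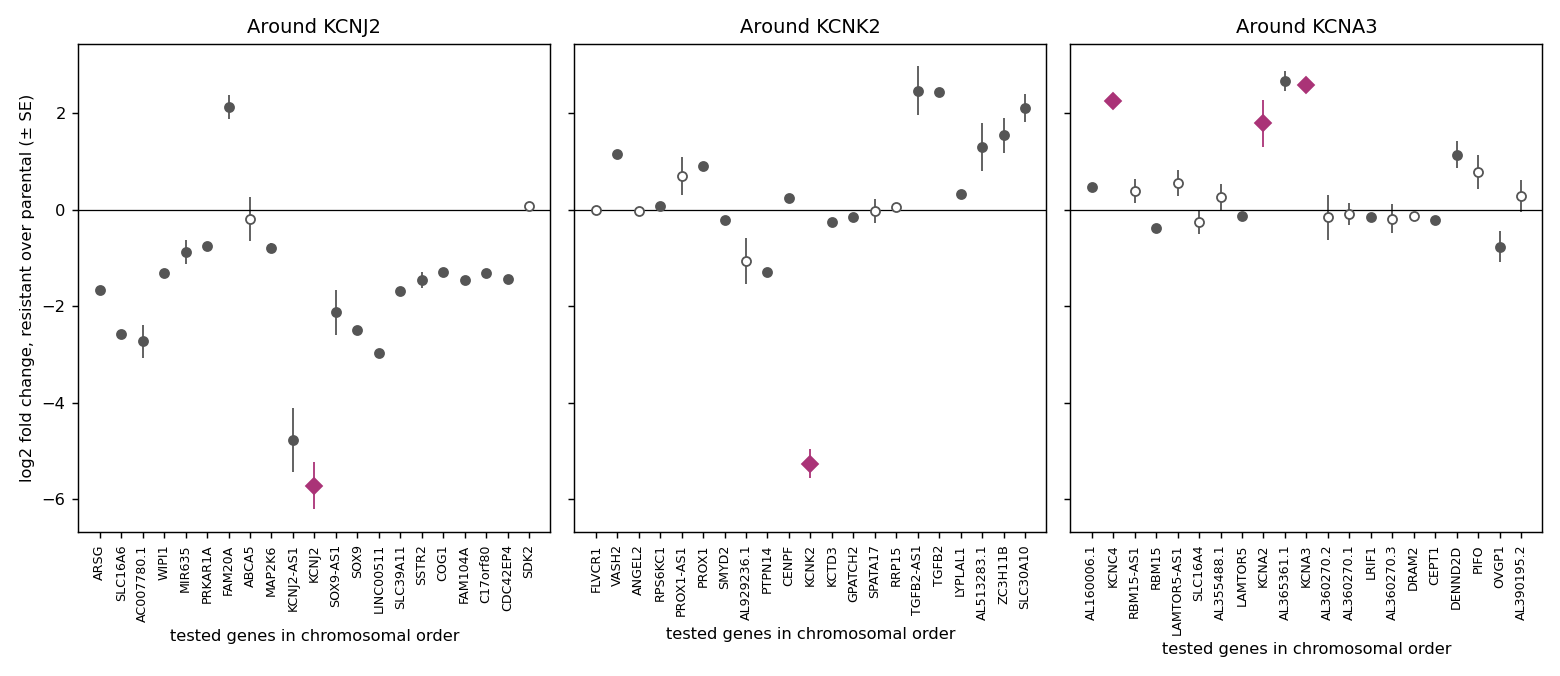
Log2 fold change of resistant over parental cells (± SE) for KCNJ2, KCNK2 and KCNA3 and the 10 tested genes on each side in chromosomal order; diamonds are KCN genes, circles other genes, and open symbols did not pass limma at an adjusted p below 0.05. The genes around KCNJ2 lie mostly below 0, those around KCNK2 do not, and KCNC4, KCNA2, AL365361.1 and KCNA3 are the 4 highest genes of their window. KCNJ2, KCNK2 and KCNA2 passed the filter on low values through a single group and had to differ.

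Genes that work with potassium channels, a list of 43, gave no common direction. Of 32 measured, 13 were higher, 12 lower and 7 did not pass (all genes 32.7% and 34.2%), with a median log2 fold change of 0.05. AMIGO1, which encodes an auxiliary subunit of a voltage-gated channel, rose, with 3932 ± 145 normalized counts in resistant and 2248 ± 20.2 in parental cells (SD, n = 2; log2 fold change 0.81, SE 0.04). The scaffold gene DLG1 (0.62, SE 0.04) and the transcription factor gene SP1 (0.47, SE 0.04) were higher too, as was ABCC9. Among those lower, FXYD5, a regulator of the sodium pump, fell to 3783 ± 6.26 in resistant cells, against 9232 ± 22.5 in parental cells (-1.29, SE 0.03). The scaffold gene DLG4 was lower as well (-0.93, SE 0.06). REST, which represses many neuronal channel genes, was slightly higher (0.11, SE 0.04, limma adjusted p = 0.0394). Of 6 cation chloride cotransporter genes, 2 were higher and 4 lower.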

How the data were processed

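Poly(A)-selected RNA of 4 RD libraries was analysed, grouped and numbered by the sample titles. The submitters' processing notes name GRCh38, bcl2fastq 2.17, STAR 2.5.2b, Subread 1.5.2 and DESeq2. The authors' annotation and strandedness were not given in the sources used here. Deposited columns of the samples hold a signal of normalized counts, that is, gene counts which the authors had divided by a size factor for each library, as the values show. All values were whole multiples of one step per column (100% within 0.01), so reads were recovered. The log2 fold changes and p-values in the authors' deposited table served as an alternative. The smallest mean of a gene in the table was 9.98, so genes of very low level lie outside it. Intervals cover counting error only.

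Genes with at least 10 in at least 2 libraries (18330) were fitted with limma 3.58.1 in R 4.3.3 on log2(value + 1), group alone, with an intensity trend and Benjamini-Hochberg adjustment. A fold change on this scale understates that of low genes. Alternatives used edgeR 4.0.16 and DESeq2 1.42.0 on recovered reads. The main limma, edgeR quasi-likelihood, DESeq2, limma-voom, 1.2-fold and replicate-block fits were run on simulated counts. The other steps were not tested in this way. Places and lengths come from GENCODE 29 and promoters from RefSeq. The members and lists were chosen with earlier results of these data known. Some genes are not reported here by name, although the counts include them. The other members are accounted for, with all 4 values where a called change is at least 2-fold and the higher group averages at least 20, or where the member leads its class per length; others are named by class. Up to 4 partner genes per direction were named by smallest adjusted p, and REST and the cotransporter counts were added after their values were seen.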

Additional observations from a re-analysis of the deposited data

How the results depend on the processing

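Under 19 alternative settings, 22 of the 30 higher and 5 of the 14 lower calls were kept in every setting that gave a value. The same held for 21 of the 23 calls with at least a 2-fold change, with KCNJ5 and KCNH4 as the exceptions. The kept calls include KCNA2, KCNJ2 and KCNK2, which passed the filter on low values through a single group and had to differ. Without 1 library, 13 called genes lost their call in at least one of the 4 fits, as given beside them. In these fits the lone library left in a group is assumed to vary like the others. The matching shares of kept and lost calls over all genes were not computed. Fewer channel genes were called lower by DESeq2 (9), in the authors' deposited table (9) and against a change of 1.2-fold (5). Against 1.2-fold, 3380 genes were higher and 3414 lower over the whole table, and 5 partner genes were higher. With the dispersion fixed at 0.01, an assumed spread between separate cultures, 3891 genes were lower and 5 partner genes higher, and 25 channel genes were higher and 10 lower. The only called direction that turned was that of KCNMB4 (-0.17 with the neighbours' median removed). The causes were not tested. The limit of 50 on low values left 13 of the 55 genes without a value. With a replicate block, 29 channel genes (without KCND3) were higher and 14 lower, and 5926 and 6218 genes in all. The shared replicate numbers were not found to pair the libraries (correlation of same-numbered deviations -0.03). Read counts of the 2 libraries of a group differed by more than sampling noise (chi-square per gene 4.00 in resistant and 1.61 in parental pairs), and genes under about 50 normalized counts rest on few reads.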
